A study of Saccharomyces cerevisiae with 16 samples.

Results

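The genes described here encode the enzymes of glycolysis and of alcoholic fermentation in the yeast Saccharomyces cerevisiae, from the hexokinases down to the alcohol and acetaldehyde dehydrogenases. Members were picked by gene name, 36 of the 6248 features measured, and each of the 36 was represented by 1 probe on the array. The set holds 3 hexose kinases, 5 enzymes of upper glycolysis, 2 enzymes that make fructose-2,6-bisphosphate, 11 genes of lower glycolysis, 3 pyruvate decarboxylases, 7 alcohol dehydrogenases and 5 acetaldehyde dehydrogenases.

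Glycolysis splits glucose into pyruvate, pyruvate decarboxylase removes carbon dioxide to give acetaldehyde, and alcohol dehydrogenase reduces acetaldehyde to ethanol and so regenerates the NAD+ that glycolysis needs. Most steps of the route have several isoenzymes in yeast, of which usually one carries most of the activity on glucose while others are expressed under glucose limitation, stress or particular vitamin supply. A side branch oxidises acetaldehyde to acetate, a source of NADPH and acetyl-CoA and a common by-product in wine.

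RNA came from EC1118, a commercial wine strain, grown in a synthetic grape must that held 100 mg/L of usable nitrogen, as amino acids with ammonium chloride, and 200 g/L of glucose. In the ammonium group (3 samples) and the valine group (3 samples), the third tank of a four-stage continuous fermentation received a continuous feed of that nitrogen source, worth 100 mg/L of extra nitrogen, and was sampled at its new steady state. The no-addition group (4 samples) came from the same tank at steady state before any supplement, when nitrogen was exhausted and 164 g/L glucose remained, and samples of the continuous conditions were 24 h apart. The batch group (4 samples) came from stirred fermentors at 28 °C on the same must, in stationary phase at the same 164 g/L residual glucose, and it is unclear from the labels if each sample had a fermentor of its own. Neither the temperature of the tanks nor the residual glucose under a supplement is stated in the labels. Samples of one continuous condition were drawn from a running culture, so p-values measure the spread between samplings, which may be technical in batch too, and condition cannot be told apart from the time of the run.

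Values are log2 intensities of 1-colour arrays. Array medians lay between 9.09 and 9.10, and each of the 2 slides held all 4 groups. On slide 1 were 1 ammonium, 2 valine, 1 no-addition and 3 batch arrays, and on slide 2 there were 3 ammonium, 1 valine, 3 no-addition and 1 batch arrays, so values within a slide often rest on 1 array of a group and are given below without a test. RNA of ammonium sample 3 was read once on each slide, and the 2 readings differed with an SD of 0.19 over the 36 genes. The mean SD of differences to the other samples of the group, over all features, was highest within their groups for ammonium sample 2 (0.21), valine sample 3 (0.19) and batch sample 1 (0.26). The other samples had 0.16 and 0.17 with ammonium, 0.15 and 0.15 with valine, 0.13 to 0.14 without addition and 0.17 to 0.20 in batch, so valine sample 3 differed from its group by no more than some batch samples did. These are whole cultures, so a change in every cell and a change in some of the cells cannot be told apart. Batch sample 1 and ammonium sample 2 recur below as the outlying values of several genes. Counts without ammonium sample 2, valine sample 3 and batch sample 1, an alternative chosen after the data were seen, are given beside the counts they change.

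The glycolytic genes were among the brightest on the arrays, which bears on every small difference below. Of the 36 genes, 12 lay in the brightest 1% of features, and 10 of the 20 features with a mean log2 intensity above 15 belonged to the set. Those 10 genes were FBA1, TPI1, TDH1, PGK1, GPM1, ENO1, ENO2, CDC19, PDC1 and ADH1, and the difference between their highest and lowest group means ran from 0.12 to 0.88 with a median of 0.20. Arrays ended at 15.82 to 15.96, and fold changes of probes near that end can be compressed. On the slide 2 array of ammonium sample 3, TPI1, GPM1 and ADH1 all read 15.82, the maximum of that array. FBA1 read 15.96, the array maximum, in no-addition samples 2 and 4 and in batch sample 2. The small changes of FBA1, TPI1, GPM1 and ADH1 given below carry this limit. The other 26 genes had a median difference between group means of 0.90, and 13 of the 26 exceeded 1, that is 2-fold. Over all features the median was 0.54 and 21.3% exceeded 1, and over the 20 features with a mean above 15, the 10 genes included, the median was 0.44. At the other end, ADH2 (mean 5.91) and ADH4 (mean 6.81) lay in the dimmest 25% of features. ADH2 was close to the array minimum of 5.50 to 5.56, and differences of dim probes can be compressed as well.

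**Figure D1:**
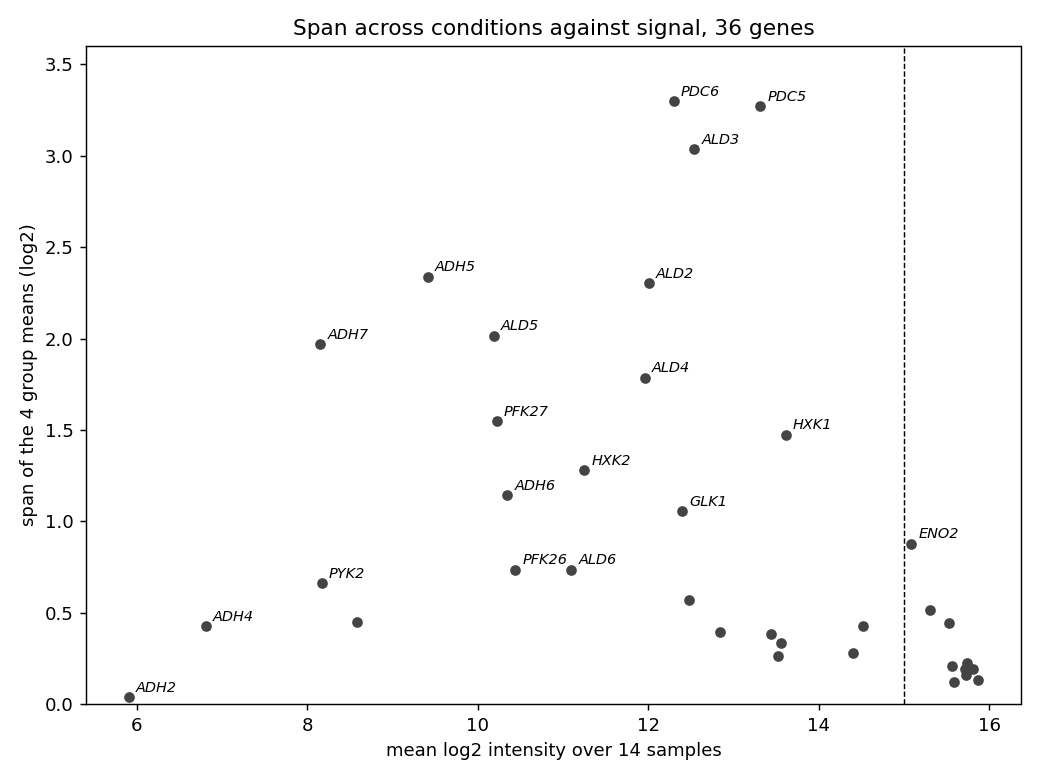
Difference between the highest and the lowest of the 4 group means (log2, y axis) against the mean log2 intensity over 14 samples (x axis), 1 point per gene, with a dashed line at 15. All 10 genes right of the line span less than 0.9, while PDC6, PDC5 and ALD3 span more than 3.

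Differences were tested with limma, and a gene was called when its adjusted p (Benjamini-Hochberg over all 6248 features) was under 0.05. Under ammonium 20 of the 36 genes were called against no addition, 9 higher and 11 lower, where 67.6% of all features were called, 32.1% higher and 35.5% lower. Under valine 26 genes were called, 13 higher and 13 lower, against 67.9% of all features, 32.3% higher and 35.6% lower. Between the no-addition samples and batch 19 genes were called, 11 higher and 8 lower, against 57.3% of all features, 30.3% higher and 27% lower. The groups did not overlap in 22 genes with ammonium (71.5% of all features), in 28 with valine (69.6%) and in 19 between no addition and batch (52.4%). These shares lie near those of the whole array, so the number of calls does not set the enzymes apart.

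Large changes were more frequent among the 36 genes than over all features, which is given here as a description. A called change of at least 2-fold was seen in 8 of the 36 genes (22.2%) with ammonium, against 12.5% of all features, in 8 with valine, against 12.2%, and in 6 (16.7%) between no addition and batch, against 4.37%. The median change of the 36 genes was near 0 throughout, at 0.00 on the log2 scale with ammonium, -0.02 with valine and 0.05 for no addition against batch. Large changes in opposite directions therefore sat beside bright genes that moved little. Without ammonium sample 2, valine sample 3 and batch sample 1 25 genes were called with ammonium, 26 with valine and 27 between no addition and batch. The shares of all features called under that setting are not given here, so these counts are not read as a result about the enzymes. With batch sample 1 alone left out, PFK27, PGK1 and ADH6 also passed with ammonium, HXK1 and ADH6 with valine, and HXK2, PGI1, PFK2, TDH2, PGK1 and PYK2 between no addition and batch.

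**Figure D2:**
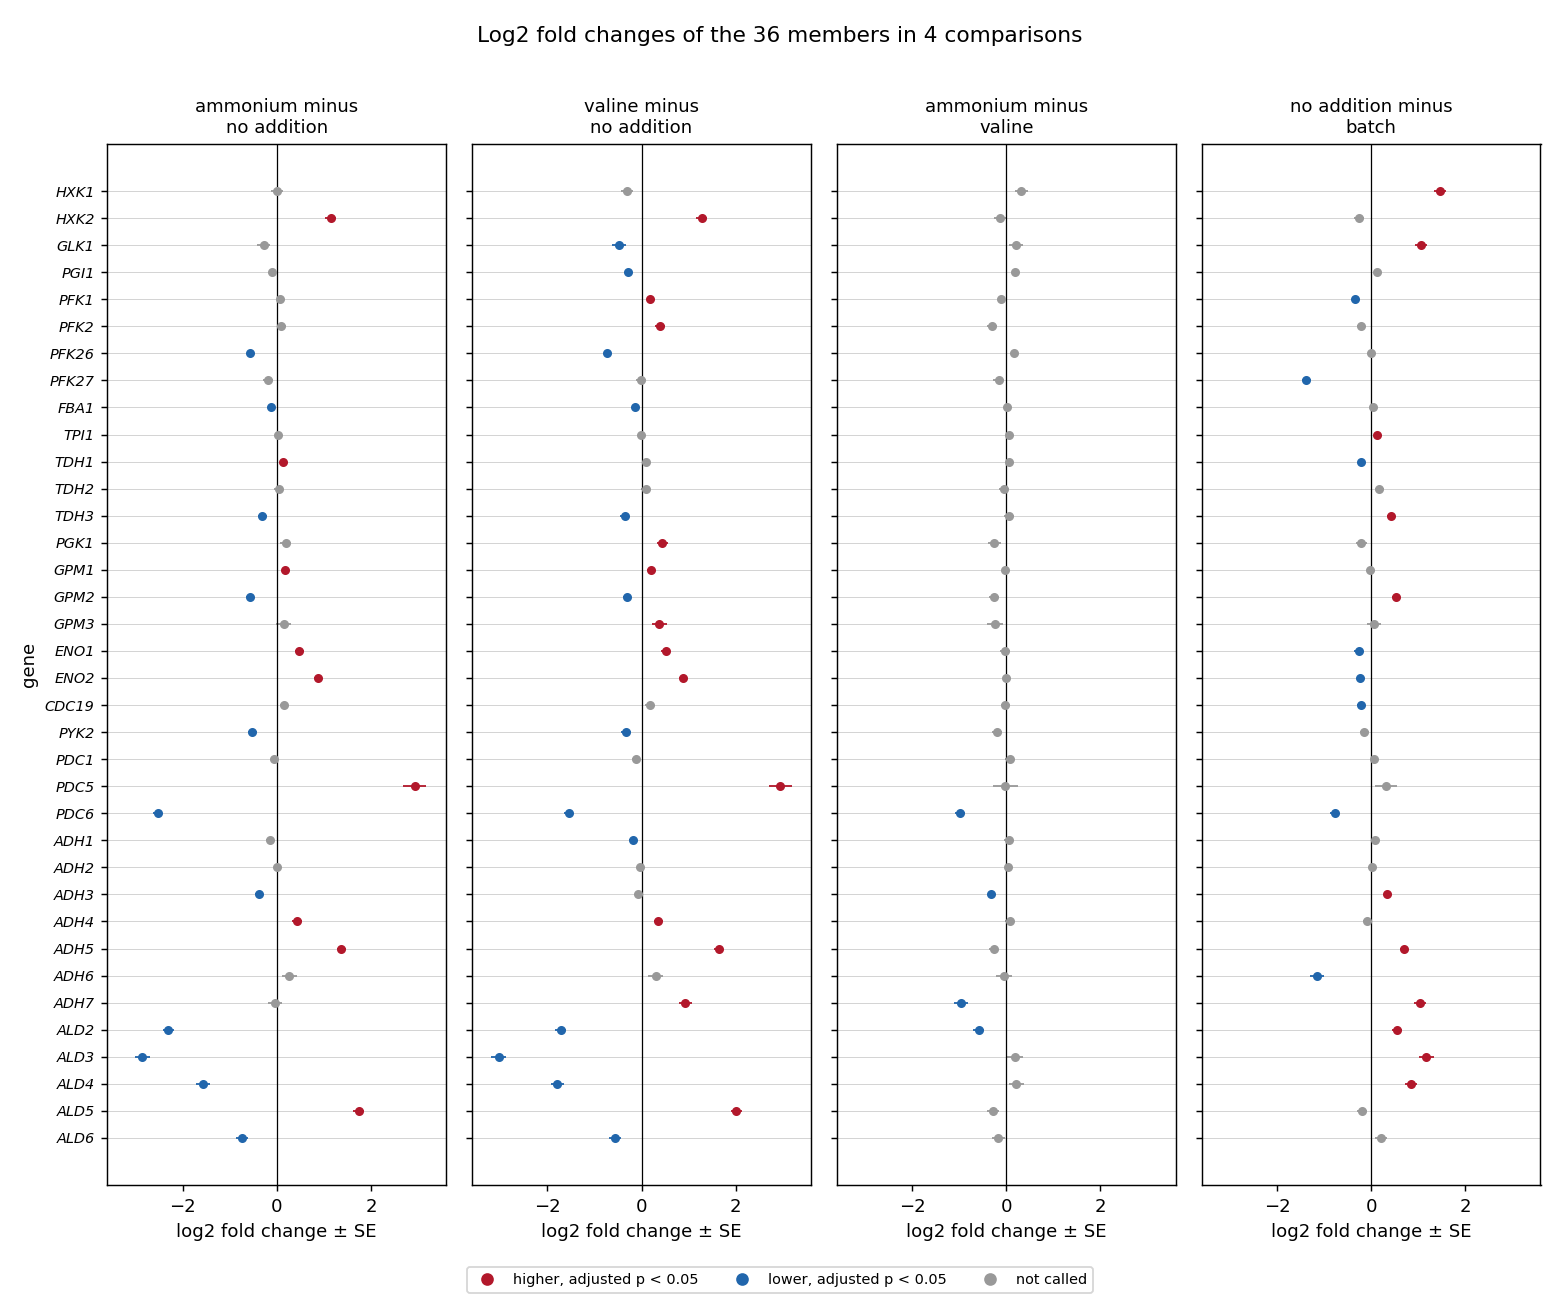
Log2 fold changes with standard errors (x axis) of the 36 genes (y axis, in pathway order) in 4 comparisons, where red marks genes called higher, blue genes called lower and grey genes not called. With both supplements PDC5, PDC6, ALD2, ALD3, ALD4, ALD5, ADH5 and HXK2 lie more than 1 from 0.

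Both supplements were set against the same 4 no-addition samples, so the 2 sets of calls are not independent of each other. Called higher in both were HXK2, GPM1, ENO1, ENO2, PDC5, ADH4, ADH5 and ALD5, 8 genes in all. Called lower in both were 10 genes, PFK26, FBA1, TDH3, GPM2, PYK2, PDC6, ALD2, ALD3, ALD4 and ALD6. TDH1 was called higher and ADH3 lower with ammonium alone, while PFK1, PFK2, PGK1, GPM3 and ADH7 were called higher and GLK1, PGI1 and ADH1 lower with valine alone. Of these 10 genes only ADH3 and ADH7 were also called between ammonium and valine. Neither supplement gave a call for HXK1, PFK27, TPI1, TDH2, CDC19, PDC1, ADH2 or ADH6.

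The 3 kinases that phosphorylate glucose on entry moved separately. HXK2 (YGL253W), the main hexokinase on abundant glucose and a part of the glucose repression machinery, had log2 intensities of 11.92, 11.54 and 11.95 in the ammonium samples, 12.06, 11.85 and 11.91 in the valine samples, 10.61, 10.78, 10.40 and 10.84 without addition, and 10.78, 10.98, 10.91 and 10.98 in batch. Every supplemented sample lay above every sample of the other groups. HXK2 was 2.21-fold higher with ammonium than without addition (log2 1.14 ± 0.11 SE, adjusted p = 4.82e-07 by limma) and 2.43-fold higher with valine (1.28 ± 0.11, adjusted p = 1.55e-07). Within slide 1 the log2 changes were 1.33 with ammonium and 1.34 with valine, and within slide 2 they were 1.13 and 1.24.

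HXK1 (YFR053C) encodes a second hexokinase that is repressed on abundant glucose. Its level was 13.90, 14.40 and 14.01 with ammonium, 13.91, 13.81 and 13.64 with valine, 14.02, 14.08, 14.24 and 14.04 without addition, and 12.96, 12.52, 12.37 and 12.67 in batch. Batch stood below all continuous samples. Among the continuous groups the ammonium samples overlapped both the no-addition and the valine samples. HXK1 was 2.76-fold higher without addition than in batch (1.47 ± 0.12, adjusted p = 2.41e-07), the largest positive change among the 36 genes in that comparison. The difference was 1.50 with the slide as a block, 1.36 within slide 1 and 1.60 within slide 2. The change of -0.31 ± 0.13 with valine was not called (adjusted p = 0.0539), although it passed at 0.0221 without batch sample 1.

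GLK1 (YCL040W), the glucokinase, had 12.36, 13.00 and 12.37 with ammonium, 12.40, 12.32 and 12.41 with valine, 12.94, 12.87, 12.84 and 12.77 without addition, and 12.10, 11.79, 11.64 and 11.66 in batch. It was 2.08-fold higher without addition than in batch (1.06 ± 0.13, adjusted p = 7.18e-06) and fell by 0.48 ± 0.14 with valine (adjusted p = 0.00694). Ammonium sample 2 lay above the no-addition samples while the other 2 ammonium samples lay in the valine range. The ammonium change of -0.28 ± 0.14 was not called (adjusted p = 0.0909), and without ammonium sample 2 it was -0.49 with an adjusted p of 0.000809.

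In upper glycolysis the changes were small. PGI1, the phosphoglucose isomerase, fell by 0.28 ± 0.06 with valine (adjusted p = 0.00132) and differed by -0.10 ± 0.06 with ammonium (adjusted p = 0.207). PFK2, which encodes the beta subunit of phosphofructokinase, rose by 0.39 ± 0.10 with valine (adjusted p = 0.00229), and PFK1, which encodes the alpha subunit, rose by 0.18 ± 0.06 (adjusted p = 0.0228). The PFK1 call was lost without valine sample 2, without valine sample 3 or without no-addition sample 1 (adjusted p from 0.0623 to 0.0716). PFK1 was lower without addition than in batch by 0.33 (-0.33 ± 0.06, adjusted p = 0.000263). FBA1, the aldolase, fell by 0.12 with ammonium and 0.13 with valine, calls that ended when single no-addition or supplemented samples were left out, with adjusted p up to 0.157 with ammonium and up to 0.0773 with valine. TPI1, the triosephosphate isomerase, was 0.13 ± 0.04 higher without addition than in batch and within 0.03 of the no-addition level with either supplement.

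Fructose-2,6-bisphosphate activates phosphofructokinase, and its synthesis is shared by PFK26 and PFK27. PFK27 (YOL136C) had 9.69, 9.73 and 9.65 with ammonium, 9.94, 9.86 and 9.76 with valine, 9.87, 9.91, 9.79 and 9.90 without addition, and 10.88, 11.28, 11.51 and 11.29 in batch. All batch samples stood above all continuous samples, and batch sample 1 was the lowest of them. PFK27 was 2.59-fold lower without addition than in batch (-1.37 ± 0.10, adjusted p = 5.06e-08), the largest negative change among the 36 genes there, with -1.36 within slide 1 and -1.41 within slide 2. The 2 supplements left it at -0.18 ± 0.11 (ammonium) and -0.02 ± 0.11 (valine) relative to no addition, neither of which was called.

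PFK26 (YIL107C) differed with the supplements and not between no addition and batch. Its level was 10.04, 10.31 and 10.11 with ammonium, 9.98, 9.96 and 10.02 with valine, 10.71, 10.72, 10.78 and 10.66 without addition, and 10.83, 10.71, 10.66 and 10.68 in batch. The no-addition and batch samples overlapped, and every supplemented sample lay below both. PFK26 fell by 0.57 ± 0.06 with ammonium (adjusted p = 2e-06) and by 0.73 ± 0.06 with valine (adjusted p = 1.43e-07).

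Among the 11 genes of lower glycolysis, ENO2 changed most with a supplement. ENO2 (YHR174W), the enolase expressed on glucose, had 15.63, 15.43 and 15.49 with ammonium, 15.39, 15.47 and 15.68 with valine, 14.53, 14.64, 14.66 and 14.74 without addition, and 14.77, 14.86, 14.95 and 14.92 in batch. No supplemented sample overlapped the other groups, and the no-addition samples lay below batch. ENO2 was 1.84-fold higher with ammonium (0.88 ± 0.08, adjusted p = 1.23e-07) and 1.84-fold higher with valine (0.88 ± 0.08, adjusted p = 1.35e-07). Its isoenzyme ENO1 rose by 0.48 ± 0.10 with ammonium and by 0.52 ± 0.10 with valine (adjusted p = 0.000497 and 0.000277).

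Both enolases were lower without addition than in batch, ENO2 by 0.24 (-0.24 ± 0.07, adjusted p = 0.0102) and ENO1 by 0.26 (-0.26 ± 0.09, adjusted p = 0.0225). The ENO1 call was lost without batch sample 3, batch sample 4 or no-addition sample 3 (adjusted p from 0.0571 to 0.0661).

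The 3 glyceraldehyde-3-phosphate dehydrogenases differed among themselves. TDH3 (YGR192C), the main form, fell by 0.31 ± 0.10 with ammonium and by 0.36 ± 0.10 with valine (adjusted p = 0.0132 and 0.00496), and was 0.43 ± 0.09 higher without addition than in batch (adjusted p = 0.00111). TDH1, known for its expression in cells that stop growing, was lower without addition than in batch (-0.22 ± 0.06, adjusted p = 0.00327). Its rise of 0.14 ± 0.06 with ammonium (adjusted p = 0.0483) was lost when single samples of any group were left out, with adjusted p up to 0.188 without ammonium sample 1, and its ammonium and no-addition samples overlapped. TDH2 was called in none of these comparisons, with changes of 0.04 ± 0.10 with ammonium, 0.09 ± 0.10 with valine and 0.18 ± 0.09 between no addition and batch.

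PGK1, the phosphoglycerate kinase, rose by 0.44 ± 0.12 with valine (adjusted p = 0.005), and the 0.19 ± 0.12 with ammonium was not called (adjusted p = 0.184). GPM1, the phosphoglycerate mutase, rose by 0.17 ± 0.07 with ammonium and 0.19 ± 0.07 with valine. Both GPM1 calls were lost without no-addition sample 1 (adjusted p = 0.133 with ammonium and 0.0844 with valine) and without valine sample 3. The ammonium call was also lost without no-addition sample 4, ammonium sample 1 or ammonium sample 3, and the valine call without valine sample 2. GPM2, a homologue without a known mutase role in the cell, went the other way: it fell by 0.57 ± 0.09 with ammonium and by 0.31 ± 0.09 with valine, and was 0.54 ± 0.08 higher without addition than in batch. GPM3, the other such homologue, rose by 0.38 ± 0.16 with valine (adjusted p = 0.0421), but the difference was -0.0071 within slide 2. The GPM3 call was lost without valine sample 1 (adjusted p = 0.146) or valine sample 2 (adjusted p = 0.183). Leaving out any single no-addition sample, batch sample 2 or ammonium sample 3 also ended it.

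The last glycolytic step is catalysed by pyruvate kinase. CDC19 (YAL038W), the main form, had 15.55, 15.53 and 15.68 with ammonium, 15.57, 15.53 and 15.72 with valine, 15.18, 15.47, 15.51 and 15.57 without addition, and 15.60, 15.71, 15.50 and 15.76 in batch. Its supplemented and no-addition samples overlapped, and no call was made with ammonium (0.15 ± 0.09) or valine (0.17 ± 0.09), although the valine change passed with the slide as a block (0.24 ± 0.08, adjusted p = 0.0187). The difference of -0.21 ± 0.08 between no addition and batch passed at an adjusted p of 0.0433 with overlapping groups. That call was lost without no-addition sample 1 (-0.13, adjusted p = 0.150) and without batch sample 4 (-0.17, adjusted p = 0.124). Leaving out batch sample 2, no-addition sample 2, ammonium sample 1 or valine sample 1 also ended it, as did a fit of only the 2 groups. PYK2, the glucose-repressed minor form, fell by 0.52 ± 0.10 with ammonium (adjusted p = 0.000446) and by 0.32 ± 0.10 with valine (adjusted p = 0.012), the second of which was lost without valine sample 3 (adjusted p = 0.0706).

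The isoenzymes of pyruvate decarboxylase, the first step after glycolysis, went different ways. PDC1 (YLR044C), the main form, had 15.74, 15.49 and 15.54 with ammonium, 15.58, 15.43 and 15.54 with valine, 15.65, 15.63, 15.62 and 15.66 without addition, and 15.75, 15.68, 15.44 and 15.41 in batch. Its probe lay near the array maximum in every sample. No difference in PDC1 was called, with -0.05 ± 0.08 for ammonium, -0.12 ± 0.08 for valine and 0.07 ± 0.08 for no addition against batch.

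PDC5 (YLR134W), a minor form that is known to be repressed by thiamine, had 14.97, 15.23 and 15.01 with ammonium, 15.09, 15.07 and 15.11 with valine, 11.78, 11.92, 11.75 and 13.13 without addition, and 11.99, 11.87, 11.82 and 11.60 in batch. The supplemented samples stood above all others without overlap, and no-addition sample 4 stood between them and the rest. PDC5 was 7.61-fold higher with ammonium than without addition (2.93 ± 0.25, adjusted p = 9.06e-08) and 7.70-fold higher with valine (2.95 ± 0.25, adjusted p = 9.24e-08). These were the largest positive changes of the 36 genes in both comparisons. Against batch the differences were 3.25 ± 0.25 with ammonium and 3.27 ± 0.25 with valine.

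Without sample 4 the no-addition level of PDC5 was 11.82 ± 0.09 (SD, n = 3). The changes within slide 1, which held 1 array without addition, were 3.54 with ammonium and 3.30 with valine, and within slide 2, which held sample 4, they were 2.70 and 2.85. The 2 arrays of ammonium sample 3 read 15.33 on slide 1 and 14.70 on slide 2, the widest gap of that sample among the 36 genes. THI4, a gene of thiamine synthesis looked at after the PDC5 values were seen, had 15.73, 15.85 and 15.81 with ammonium, 15.90, 15.83 and 15.92 with valine, 11.46, 11.93, 11.62 and 13.20 without addition, and 9.32, 8.94, 8.85 and 9.00 in batch. The same no-addition sample was the highest of its group for both genes, and the part of thiamine supply in the PDC5 result was not tested.

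PDC6 (YGR087C), the other minor pyruvate decarboxylase, had 10.28, 10.66 and 10.33 with ammonium, 11.31, 11.30 and 11.59 with valine, 13.02, 12.95, 13.00 and 12.85 without addition, and 13.87, 13.59, 13.76 and 13.68 in batch. The 4 groups did not overlap at any point and stood in the order ammonium, valine, no addition and batch from low to high. PDC6 was 5.77-fold lower with ammonium than without addition (-2.53 ± 0.10, adjusted p = 3.37e-11) and 2.93-fold lower with valine (-1.55 ± 0.10, adjusted p = 5.1e-09). It was 1.71-fold lower without addition than in batch (-0.77 ± 0.09, adjusted p = 5.3e-06). Against batch the differences were -3.30 ± 0.10 with ammonium and -2.32 ± 0.10 with valine.

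**Figure D3:**
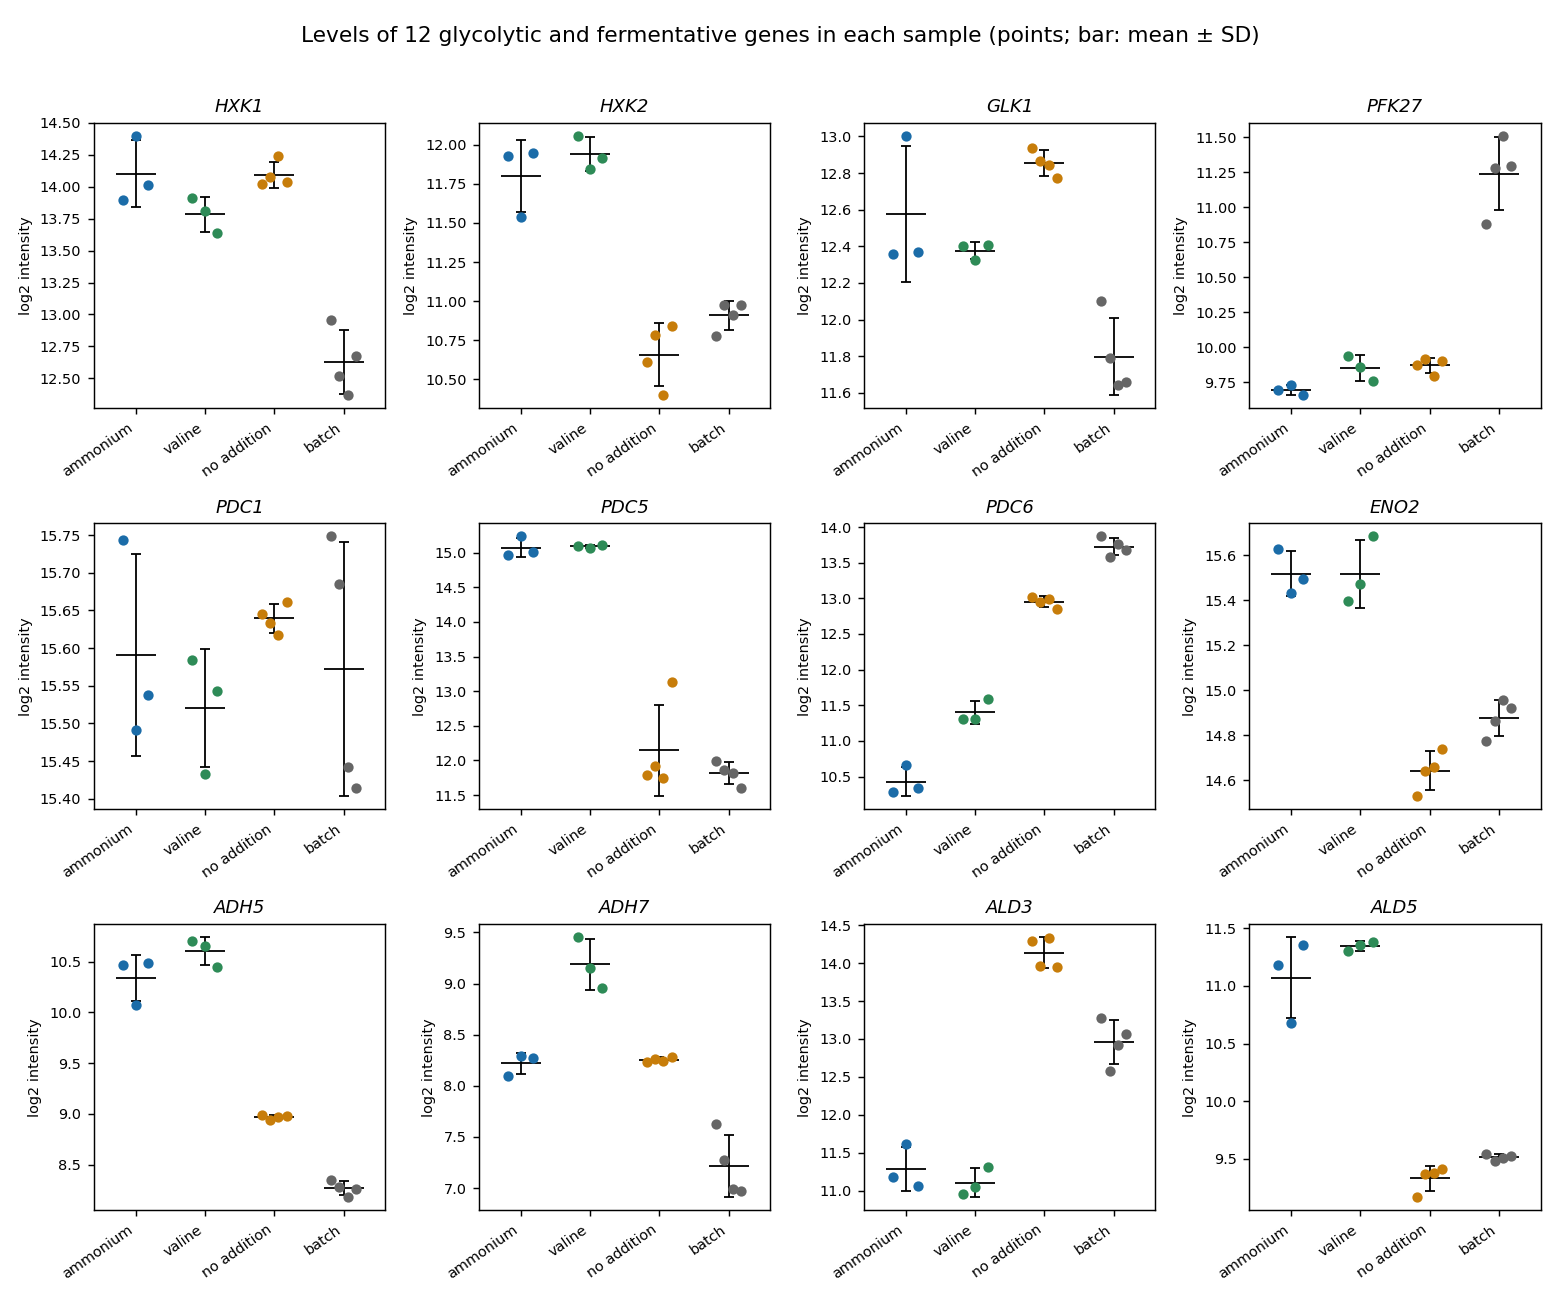
Log2 intensity (y axis) of 12 genes in each sample (points), by group (x axis), with the group mean and SD as bars and a separate y range in each panel. PDC5 is near 15 in the 6 supplemented samples and near 12 elsewhere except for 1 no-addition sample at 13.13, PDC6 steps up from ammonium to batch with no overlap, and PDC1 stays between 15.41 and 15.75.

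Alcohol dehydrogenases ranged from the bright ADH1 to the dim ADH2. ADH1 (YOL086C), which forms most of the ethanol, had 15.60, 15.91 and 15.76 with ammonium, 15.54, 15.80 and 15.79 with valine, 15.93, 15.85, 15.93 and 15.89 without addition, and 15.91, 15.79, 15.69 and 15.85 in batch. Samples of the ammonium, no-addition and batch groups overlapped. The fall of 0.19 ± 0.08 with valine just passed (adjusted p = 0.049) and was lost in most alternatives, for example at 0.269 without valine sample 1. With ammonium the change was -0.14 ± 0.08 (adjusted p = 0.134), which passed at 0.0302 without ammonium sample 2. ADH2, the glucose-repressed form that oxidises ethanol, stayed between 5.85 and 5.98 in all 14 samples, close to the array minimum, so no difference could be measured there.

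ADH5 (YBR145W), a cytosolic isoenzyme, had 10.46, 10.08 and 10.48 with ammonium, 10.71, 10.66 and 10.45 with valine, 8.98, 8.94, 8.97 and 8.98 without addition, and 8.34, 8.28, 8.18 and 8.26 in batch. Supplemented samples lay above no addition and no addition above batch, with no overlap between those 3 sets. ADH5 was 2.59-fold higher with ammonium (1.37 ± 0.09, adjusted p = 5.52e-09), 3.11-fold higher with valine (1.64 ± 0.09, adjusted p = 1.18e-09) and 1.63-fold higher without addition than in batch (0.70 ± 0.08, adjusted p = 5.25e-06).

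ADH6 and ADH7 encode NADPH-dependent alcohol dehydrogenases with broad substrate ranges. ADH7 (YCR105W) had 8.10, 8.29 and 8.27 with ammonium, 9.45, 9.15 and 8.96 with valine, 8.24, 8.26, 8.25 and 8.28 without addition, and 7.63, 7.27, 6.99 and 6.97 in batch. The valine samples were the highest, ammonium overlapped no addition, and batch was the lowest. ADH7 was 1.91-fold higher with valine than without addition (0.93 ± 0.14, adjusted p = 3.17e-05) and 2.06-fold higher without addition than in batch (1.04 ± 0.13, adjusted p = 8.51e-06), while the ammonium change of -0.04 ± 0.14 was not called.

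ADH6 (YMR318C) had 10.23, 10.06 and 10.20 with ammonium, 10.10, 10.40 and 10.11 with valine, 9.92, 10.02, 9.74 and 9.92 without addition, and 10.46, 11.18, 11.30 and 11.22 in batch. It was 2.21-fold lower without addition than in batch (-1.14 ± 0.15, adjusted p = 1.3e-05), and batch sample 1 was far below the other 3 batch samples. The changes of 0.27 ± 0.16 with ammonium and 0.31 ± 0.16 with valine were not called.

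ADH3 (YMR083W), the mitochondrial alcohol dehydrogenase, had 13.23, 13.22 and 13.27 with ammonium, 13.46, 13.73 and 13.49 with valine, 13.56, 13.70, 13.56 and 13.68 without addition, and 13.34, 13.30, 13.16 and 13.38 in batch. The ammonium samples lay below the valine and no-addition samples without overlap. ADH3 fell by 0.38 ± 0.07 with ammonium (adjusted p = 0.000226), differed by -0.07 ± 0.07 with valine (adjusted p = 0.41) and was 0.33 ± 0.07 higher without addition than in batch (adjusted p = 0.00059). ADH4, whose probe is dim, was 0.43 ± 0.10 higher with ammonium and 0.36 ± 0.10 higher with valine.

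Acetaldehyde dehydrogenases turn acetaldehyde into acetate, and all 5 genes were called with both supplements, 4 lower and 1 higher, where 67.6% of all features were called with ammonium and 67.9% with valine. ALD3 (YMR169C), a cytosolic stress-induced form, had 11.18, 11.61 and 11.06 with ammonium, 10.95, 11.04 and 11.31 with valine, 14.29, 13.96, 14.33 and 13.95 without addition, and 13.27, 12.58, 12.92 and 13.06 in batch. Supplemented samples lay below batch, and batch lay below no addition, with no overlap. ALD3 was 7.22-fold lower with ammonium than without addition (-2.85 ± 0.17, adjusted p = 1.79e-09) and 8.19-fold lower with valine (-3.03 ± 0.17, adjusted p = 1.2e-09), the largest negative changes of the set. It was 2.26-fold higher without addition than in batch (1.18 ± 0.15, adjusted p = 1.39e-05).

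ALD2 (YMR170C), the neighbouring cytosolic form, had 10.61, 11.01 and 10.53 with ammonium, 11.17, 11.33 and 11.42 with valine, 13.13, 12.95, 13.07 and 12.94 without addition, and 12.73, 12.39, 12.40 and 12.38 in batch. The 4 groups did not overlap, and the ammonium samples were the lowest. ALD2 was 4.94-fold lower with ammonium (-2.30 ± 0.11, adjusted p = 3.71e-10), 3.29-fold lower with valine (-1.72 ± 0.11, adjusted p = 8.12e-09) and 1.46-fold higher without addition than in batch (0.55 ± 0.11, adjusted p = 0.000458). ALD2 and ALD3 are similar genes, as are other isoenzymes of the set.

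The mitochondrial pair went in opposite directions. ALD4 (YOR374W), the major mitochondrial form, had 11.19, 11.85 and 11.00 with ammonium, 11.12, 11.19 and 11.10 with valine, 12.97, 12.84, 13.01 and 12.85 without addition, and 12.19, 11.94, 11.97 and 12.18 in batch. It was 2.97-fold lower with ammonium (-1.57 ± 0.15, adjusted p = 2.5e-07), 3.45-fold lower with valine (-1.78 ± 0.15, adjusted p = 7.27e-08) and 1.80-fold higher without addition than in batch (0.85 ± 0.14, adjusted p = 9.28e-05). Ammonium sample 2 was the supplemented sample nearest to the others, and no groups overlapped between supplement and no addition.

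ALD5 (YER073W), the minor mitochondrial form, had 11.18, 10.68 and 11.35 with ammonium, 11.30, 11.36 and 11.38 with valine, 9.17, 9.37, 9.37 and 9.41 without addition, and 9.55, 9.48, 9.50 and 9.53 in batch. Every supplemented sample was above every other sample. ALD5 was 3.34-fold higher with ammonium (1.74 ± 0.12, adjusted p = 7.41e-09) and 4.04-fold higher with valine (2.02 ± 0.12, adjusted p = 1.99e-09), while the difference of -0.18 ± 0.11 between no addition and batch was not called (adjusted p = 0.158).

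ALD6 (YPL061W), the cytosolic NADP-dependent form that makes most acetate during fermentation, had 11.07, 10.57 and 10.46 with ammonium, 10.67, 10.94 and 11.00 with valine, 11.55, 11.43, 11.30 and 11.48 without addition, and 11.00, 11.31, 11.31 and 11.27 in batch. It fell by 0.74 ± 0.13 with ammonium (adjusted p = 0.00016) and by 0.57 ± 0.13 with valine (adjusted p = 0.00138), and its no-addition and batch samples overlapped (0.21 ± 0.12, adjusted p = 0.145). Each group of supplemented samples lay below the no-addition samples.

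Ammonium and valine were set against each other to ask whether the kind of nitrogen mattered at an equal nitrogen supply. With limma 0 genes of the set were called higher with ammonium and 4 were called lower, PDC6, ADH7, ALD2 and ADH3, where 16.4% of all features were called, 7.59% higher and 8.79% lower. At an unadjusted limma p under 0.05 there were 3 higher and 8 lower, and the share of all features at that threshold is not given here. No called change reached 2-fold, against 0.448% of all features, and the groups did not overlap in 9 genes, against 34.3% of all features. PDC6 was 1.97-fold lower with ammonium than with valine (-0.98 ± 0.10, adjusted p = 3.28e-05), with -1.10 within slide 1 and -1.12 within slide 2. ADH7 was 1.95-fold lower (-0.97 ± 0.15, adjusted p = 0.000677), ALD2 was 1.50-fold lower (-0.59 ± 0.12, adjusted p = 0.0055) and ADH3 was 1.24-fold lower (-0.32 ± 0.08, adjusted p = 0.0123). The ADH3 call was lost without valine sample 2 (adjusted p = 0.0672).

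This count of calls depended on single samples more than the others. Leaving out 1 sample at a time gave 3 to 8 called genes, with 8 without batch sample 1, which enters through the shared estimate of the spread, and 7 without valine sample 3. Without batch sample 1, ammonium sample 2 and valine sample 3 together, 11 genes were called, 1 higher and 10 lower. Shares of all features under these settings are not given here, so neither the counts nor their direction are read as a trait of the set. PDC5 (-0.02 ± 0.26), ENO2 (0.00 ± 0.08) and HXK2 (-0.14 ± 0.12) were not called between the supplements, but with these errors the test bounds only the larger differences.

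The supplemented cultures were also set against batch, a comparison that joins the change of culture with the supplement. With ammonium 20 genes were called, 10 higher and 10 lower, where 68.7% of all features were called, 33.2% higher and 35.5% lower, and the groups did not overlap in 19 genes (65.6% of all features). With valine 25 genes were called, 15 higher and 10 lower, where 66.5% of all features were called, 31.6% higher and 34.8% lower, and the groups did not overlap in 22 genes (62.5% of all features). A called change of at least 2-fold was seen in 9 genes with ammonium, against 13.1% of all features, and in 10 with valine, against 12.4%.

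All 3 hexose kinases were called higher than in batch with both supplements, where 33.2% of all features were called higher with ammonium and 31.6% with valine. HXK1 was higher by 1.47 ± 0.13 with ammonium and 1.16 ± 0.13 with valine, HXK2 by 0.89 ± 0.11 and 1.03 ± 0.11, and GLK1 by 0.78 ± 0.14 and 0.58 ± 0.14. PFK27 was lower, at -1.55 ± 0.11 with ammonium and -1.39 ± 0.11 with valine. ADH5 was higher by 2.08 ± 0.09 with ammonium and 2.34 ± 0.09 with valine, and ADH7 by 1.00 ± 0.14 and 1.97 ± 0.14. ALD4, which was higher without addition than in batch, was lower than in batch with ammonium (-0.72 ± 0.15) and with valine (-0.94 ± 0.15).

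Isoenzymes were then compared directly through the log2 difference between 2 genes of the same step within each sample, and the change of that difference between groups, called the unequal change here, was tested by an exact two-sided permutation test. In all 21 pairs were tested in 4 comparisons, 84 tests in all. Among them were GPM2 and GPM3 against GPM1, homologues without a known mutase role, and the subunits PFK1 and PFK2. The smallest p the design allows is 0.0571 for a supplement against no addition. It is 0.0286 for no addition against batch and 0.1 for ammonium against valine. After Benjamini-Hochberg adjustment over the 84 tests 0 fell under 0.05, the smallest being 0.102, and with these sample sizes none could. An unadjusted exact p under 0.05 was seen in 13 tests, all between no addition and batch, the only comparison where it was possible. The groups are therefore described by whether they overlap. The probe sequences were not used here, so signal shared between the probes of similar isoenzymes, such as those of TDH, ENO, PDC, HXK, ADH and ALD, was not tested. The groups were apart in 17 of 21 pairs with ammonium, in 17 of 21 with valine, in 13 of 21 between no addition and batch, and in 5 of 21 between ammonium and valine. Single features did not overlap in 71.5%, 69.6%, 52.4% and 34.3% of cases in the same order, which is a different measure from a difference of genes. Pairs of other genes were not counted, so the pair counts are not read as a result about isoenzymes.

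With ammonium the largest unequal changes against no addition were those of PDC5 against PDC1 (2.98 ± 0.36 SE), PDC6 against PDC1 (-2.48 ± 0.19), ALD5 against ALD6 (2.48 ± 0.28), ALD3 against ALD6 (-2.12 ± 0.30) and ALD2 against ALD6 (-1.57 ± 0.27). With valine they were those of PDC5 against PDC1 (3.06 ± 0.33), ALD5 against ALD6 (2.58 ± 0.13), ALD3 against ALD6 (-2.47 ± 0.14), ADH5 against ADH1 (1.83 ± 0.15) and GLK1 against HXK2 (-1.76 ± 0.13). Each of these pairs separated the groups and had an exact permutation p of 0.0571, the smallest possible. Since the probes of PDC1 and ADH1 were near the array maximum, unequal changes against them include any compression there.

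Between no addition and batch the largest unequal changes were those of ADH7 against ADH6 (2.18 ± 0.35), HXK1 against HXK2 (1.72 ± 0.22), PFK26 against PFK27 (1.37 ± 0.18), GLK1 against HXK2 (1.31 ± 0.19) and ALD3 against ALD6 (0.96 ± 0.24), each separated with an exact permutation p of 0.0286, the smallest possible. PDC5 against PDC1 was not separated there (0.26 ± 0.33, exact p = 0.857). Pairs separated between ammonium and valine were PDC6 against PDC1 (-1.05 ± 0.20), ADH7 against ADH6 (-0.93 ± 0.21), HXK1 against HXK2 (0.46 ± 0.29), ADH3 against ADH1 (-0.36 ± 0.12) and PFK26 against PFK27 (0.33 ± 0.10). The subunits PFK1 and PFK2 of the same enzyme were not separated in any of the 4 comparisons, with unequal changes from -0.21 to 0.19.

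**Figure D4:**
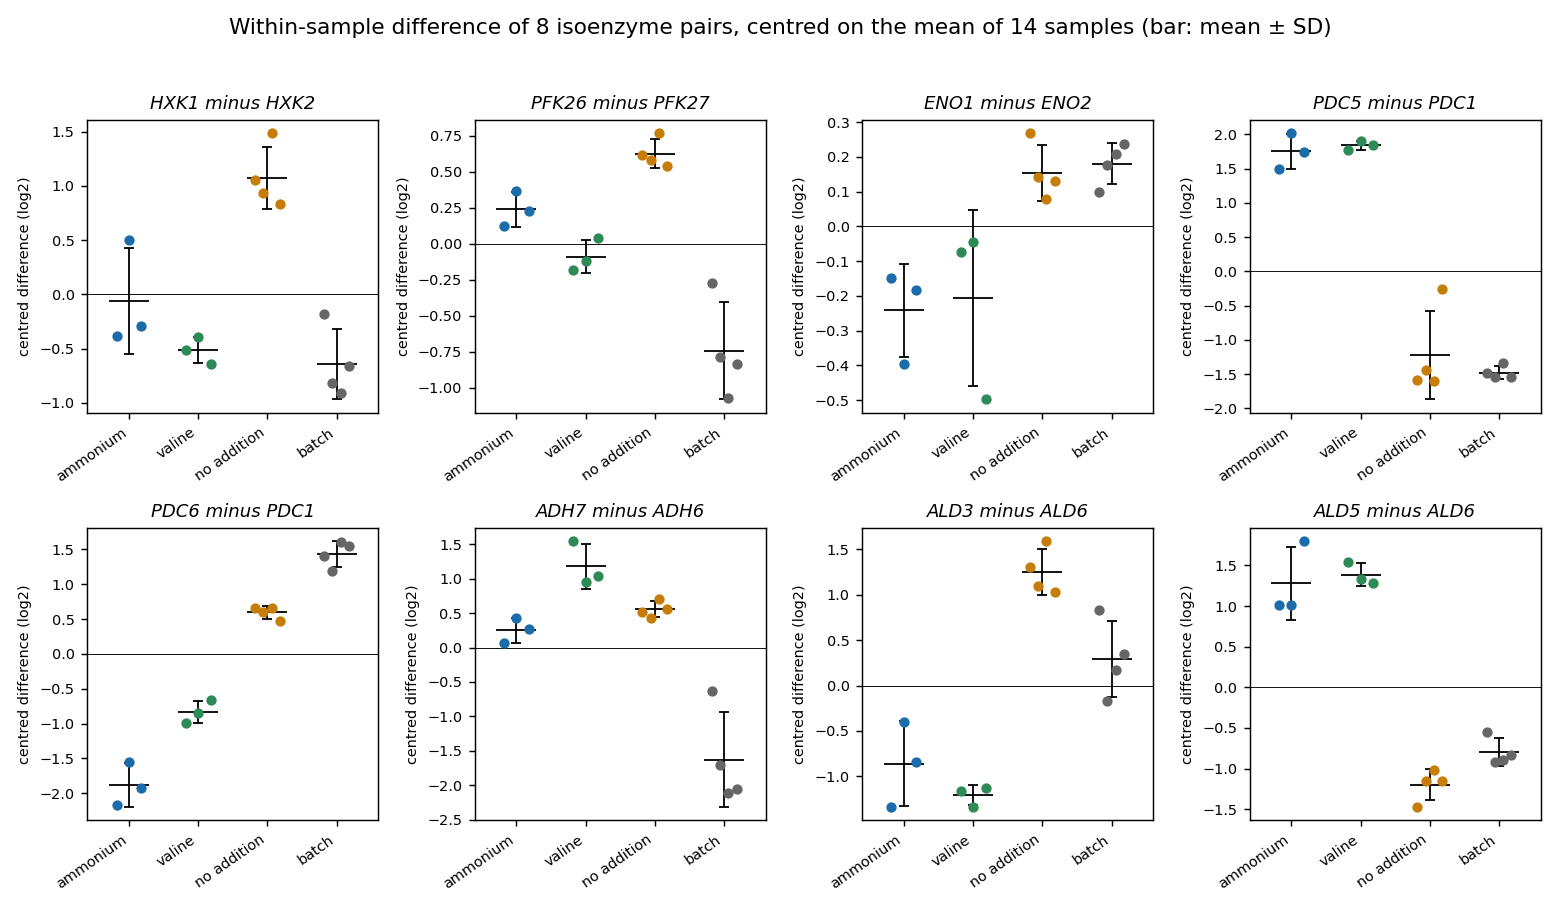
Log2 difference between 2 isoenzymes within each sample (y axis, centred on the mean of 14 samples), by group (x axis), for 8 pairs, with points for samples and bars for mean and SD. The samples of each supplement lie apart from no addition in all 8 pairs. Batch lies apart from no addition in all but ENO1 minus ENO2 and PDC5 minus PDC1.

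The slide changed few of these directions. All 19 genes called between no addition and batch, all 20 called with ammonium, 25 of the 26 called with valine and all 4 called between the supplements had the same sign within slide 1 and within slide 2, the exception being GPM3 with valine. With the slide as a block, calls were lost for ENO1 between no addition and batch (adjusted p = 0.0738), for TDH1 (0.0561) and GPM1 (0.0553) with ammonium, and for FBA1 (0.0588), GPM3 (0.0964) and ADH1 (0.0801) with valine.

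Genes next to the pathway were taken as 3 lists from textbook knowledge, and their counts are to be read against the shares of all features called, 67.6% with ammonium, 67.9% with valine, 57.3% between no addition and batch and 16.4% between the supplements. By direction, 32.1% of all features were called higher and 35.5% lower with ammonium, and 32.3% and 35.6% with valine. Between no addition and batch 30.3% were higher and 27% lower, and between the supplements 7.59% and 8.79%. Some list counts lie away from these shares, such as 12 of 18 regulators called lower between no addition and batch. These differences were not tested. Of 18 regulators, 4 were called higher and 10 lower with ammonium, 4 higher and 10 lower with valine, 1 higher and 12 lower between no addition and batch, and 0 between the supplements by limma, where 2 had an unadjusted p under 0.05. CAT8, an activator of gluconeogenic genes, fell by 1.99 ± 0.10 with ammonium and 1.80 ± 0.10 with valine, and HAP4, an activator of respiratory genes, fell by 1.65 ± 0.13 and 1.79 ± 0.13. TYE7, an activator of glycolytic genes, fell by 0.67 ± 0.07 with ammonium and by 0.45 ± 0.07 with valine. It was 0.75 lower without addition than in batch (-0.75 ± 0.07). RAP1, which binds many glycolytic promoters, rose by 0.47 ± 0.09 with ammonium and by 0.46 ± 0.09 with valine. It was lower without addition than in batch (-0.42 ± 0.08).

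Of 15 genes of side reactions, 3 were called higher and 9 lower with ammonium, 3 higher and 10 lower with valine, and 9 higher and 4 lower between no addition and batch. MAE1, the mitochondrial malic enzyme, rose by 1.98 ± 0.11 with ammonium and 1.91 ± 0.11 with valine, and was lower without addition than in batch (-1.17 ± 0.10). BDH1, the butanediol dehydrogenase, changed by -1.51 ± 0.12 with ammonium and -1.53 ± 0.12 with valine, and was 1.71 ± 0.11 higher without addition than in batch. GPP1, a glycerol-3-phosphate phosphatase, was the only gene of this list called between the supplements, lower with ammonium than with valine (-0.48 ± 0.08, adjusted p = 0.00167).

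Of 16 listed genes of pyruvate and acetate use 15 were measured, and 2 were called higher and 7 lower with ammonium, 2 higher and 8 lower with valine, and 5 higher and 2 lower between no addition and batch. Between the supplements 1 was called, PKP2, a kinase of pyruvate dehydrogenase, lower with ammonium than with valine (-0.25 ± 0.08, adjusted p = 0.0472). ACH1, which transfers coenzyme A to and from acetate, fell by 1.19 ± 0.06 with ammonium and by 1.09 ± 0.06 with valine. ACS1, the glucose-repressed acetyl-CoA synthetase, fell by 0.69 ± 0.07 and 0.67 ± 0.07, and MPC3, a subunit of the mitochondrial pyruvate carrier used in respiration, fell by 0.70 ± 0.15 and 0.74 ± 0.15. The 2 genes called higher were PDB1 and PDX1 with either supplement. PDB1 rose by 0.24 ± 0.09 with ammonium and 0.25 ± 0.09 with valine, and PDX1 by 0.20 ± 0.05 and 0.23 ± 0.05. The median changes of the 3 lists were -0.33, -0.40 and -0.22 with ammonium and -0.28, -0.46 and -0.32 with valine, in the order given, against -0.02 and -0.01 over all features.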

How the data were processed

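Total RNA was labelled with Cy3 and hybridised to 1-colour arrays, 16 arrays of 15 samples on 2 slides. What the authors deposited is a log2 intensity for each probe. R 2.13.1 and limma appear in the submitters' processing notes, and the normalization method is not given in the sources used here. The values are read as log2, and their range (minima 5.50 to 5.56, maxima 15.82 to 15.96) fits that scale without proving it. They carry no detection flags. Precision is limited by how few arrays there are.

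Of 6271 probes 5220 carried 1 gene symbol, 1051 none and 0 several. Symbols were updated for 51, and 2 matched no current gene. Probes of one gene were averaged, which left 6248 features, and so were the 2 arrays of ammonium sample 3. For 1 sample the labels name both ammonium and valine, so it was placed in no group.

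Group differences came from a single limma fit (version 3.58.1, R 4.3.3, two-sided moderated test) with 4 group means, 14 samples and 10 residual degrees of freedom. P-values were adjusted over all 6248 features of a comparison and called at 0.05. Errors beside changes are limma's standard errors, and those of isoenzyme pairs are standard errors of the difference of group means. The method was tested on simulated data. Plots were made in Python 3.11.15 (matplotlib 3.10.9).

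The 36 genes, the isoenzyme pairs and the 3 lists were chosen with earlier results of these data known. Named in each comparison were the 4 genes that rose most and the 4 that fell most among called genes whose groups did not overlap, a panel of 15 (HXK1, HXK2, GLK1, PFK27, TDH1, TDH3, CDC19, PDC1, PDC5, PDC6, ADH1, ADH2, ALD3, ALD4 and ALD6), the genes of counts up to 5, the pairs with the 5 largest unequal changes and up to 4 genes of each list. The remaining genes of the 36 were named to account for the whole set, and THI4 after its values were seen. Alternatives were other normalizations, a filter on dim probes, array weights, slide and replicate blocks, the slides alone and each sample left out.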

Additional observations from a re-analysis of the deposited data

Results flagged for a closer look

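In the 2 groups of 4 samples, 72 sets of values (36 genes in each group) were examined for a sample far from the other 3, and 5 were found, where chance gives about 1 in 20. In no-addition sample 4, PDC5 stood at 13.13, against 11.75 to 11.92 in the other no-addition samples. In no-addition sample 1, GPM1 stood at 15.48, against 15.66 to 15.70. The remaining 3 values came from batch sample 1, the sample with the widest spread against its group. There ADH6 stood at 10.46, against 11.18 to 11.30 in the other batch samples, ALD2 at 12.73, against 12.38 to 12.40, and ALD6 at 11.00, against 11.27 to 11.31.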

How the results depend on the processing

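Precision is limited by 3 or 4 samples a group, and differences of very bright and very dim probes can be compressed. Under 28 alternatives, the 1 change of sign in a called gene named here was GPM3 with valine, at -0.0071 within slide 2 against 0.38 overall. Setting the fits within 1 slide aside, 17 of 19 calls between no addition and batch, 17 of 20 with ammonium, 20 of 26 with valine and 3 of 4 between the supplements were kept under all 26 others. Fits within 1 slide leave 1 array in some groups, which is assumed to vary like the other groups: on slide 1 ammonium and no addition, on slide 2 valine and batch. Within slide 1, 12 genes were called between no addition and batch, 12 with ammonium, 15 with valine and 1 between the supplements. Within slide 2, 16 were called with valine, 2 between the supplements and 15 between valine and batch. Between the supplements array weights gave 13 calls, and leaving out batch sample 1, ammonium sample 2 and valine sample 3 together gave 11. Leaving out 1 sample at a time gave 17 to 25 calls between no addition and batch, 17 to 23 with ammonium, 22 to 28 with valine and 3 to 8 between the supplements. Shares of all features called under the alternatives are not given here, so these counts describe only how far the calls depend on the setting. Isoenzyme pairs separated between the supplements numbered 18 within slide 1 (1 array against 2, which overlap only where the 1 lies between the 2) and 9 within slide 2 (3 against 1), 12 without the 3 samples and 5 to 9 with 1 sample left out. Samples were treated as unpaired. The 19 correlations of deviations between samples of the same replicate number ran from -0.57 to 0.31. Samples of different numbers were not correlated, so these values cannot settle whether the numbers pair the samples. With a replicate block 19 genes were called between no addition and batch, 18 with ammonium, 25 with valine and 4 between the supplements, and CDC19 then passed with valine (adjusted p = 0.0401).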

Other observations

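The sample that the labels place with both ammonium and valine had 15.47 for PDC5, 10.45 for PDC6, 11.75 for HXK2, 11.14 for ALD3, 10.69 for ALD2, 11.38 for ALD5, 13.08 for ADH3 and 8.43 for ADH7 on the log2 scale. Of its 36 values, 18 lay within the range of the ammonium samples, 9 within that of the valine samples, 8 within that of the no-addition samples and 10 within that of the batch samples. It was assigned to no group and entered no comparison.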
